A study of Mus musculus with 36 samples.

Results

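MicroRNAs of sorted Lgr5 High cells were compared with those of sorted Sox9 Negative cells from the small intestine of C57BL6/2J mice. The comparison used 6 of the 36 samples of the series, chosen by their population labels: 2 Lgr5 High libraries and 4 Sox9 Negative libraries. The 36 samples hold 34 small RNA libraries and 2 single-cell samples. All 6 libraries were made with a TriLink CleanTag kit from FACS-sorted epithelial populations, per the labels. Sox9 Negative libraries 1, 2 and 4 carry a chow label, library 3 carries the label HFD, which is not spelled out, and no diet is given for Lgr5 High. The labels give neither the age of these mice nor the transgenes, if any, behind the sorts, and they do not say whether replicates came from separate mice. The p-values below therefore measure the spread between these samples, which may be technical.

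Lgr5 is a receptor for R-spondins that marks the stem cells at the base of the intestinal crypt, and Sox9 is a transcription factor of crypt cells that is low or absent in most cells of the villus. The comparison sets stem cells against a fraction made up mostly of absorptive villus cells. A miRNA is cut from a hairpin RNA, whose 5p or 3p arm is loaded into an Argonaute protein and then guides it to partly matching messenger RNAs. Bases 2 to 8 of the loaded strand, the seed, do most of the pairing, so miRNAs with one seed are treated as a family, and a start displaced by a base has another seed. The group of miR-192, with miR-194 and miR-215, is characteristic of gut epithelium, and let-7 is best known for repressing growth genes in differentiated cells. Messenger RNAs of Lgr5 and Sox9 are not measured in small RNA libraries, so the sort labels could not be checked by their own genes.

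The sequences on which the results turn are given first, from RefSeq (GRCm38.p6), 5′ to 3′, with the seed in capitals. The first pair shares a seed and lies on different chromosomes, and of the pair miR-215-5p alone was called, as lower.
miR-192-5p (chr19:6264857-6264877, + strand): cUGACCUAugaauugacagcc
miR-215-5p (chr1:185313610-185313630, + strand): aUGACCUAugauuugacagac
With positions counted from 1 at the 5′ end of miR-192-5p, the differences are C1A, A12U and C20A, all outside the seed. Next come the let-7 sequences, shown because log2 differences of members with one seed ran from -0.96 to 4.63.
let-7b-5p (chr15:85707325-85707346, + strand): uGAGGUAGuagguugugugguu
let-7d-5p (chr13:48536078-48536099, - strand): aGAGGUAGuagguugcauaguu
let-7e-5p (chr17:17830366-17830387, + strand): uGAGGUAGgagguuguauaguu
let-7g-5p (chr9:106178846-106178867, + strand): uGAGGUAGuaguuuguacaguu
let-7i-5p (chr10:122985698-122985719, - strand): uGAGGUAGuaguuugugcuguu
The miR-148 family is shown because its members moved in opposite directions.
miR-148a-3p (chr6:51269829-51269850, - strand): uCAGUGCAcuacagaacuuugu
miR-148b-3p (chr15:103285185-103285206, + strand): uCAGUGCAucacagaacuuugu
miR-152-3p (chr11:96850439-96850459, + strand): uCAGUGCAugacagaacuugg
Counted from the 5′ end of miR-148b-3p, miR-152-3p differs at C10G and U20G and is 21 bases long against 22.
Single miRNAs with large changes were the following.
miR-22-3p (chr11:75463772-75463793, + strand): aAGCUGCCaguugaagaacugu
miR-140-3p (chr8:107551288-107551308, + strand): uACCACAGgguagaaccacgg
miR-31-5p (chr4:88910614-88910635, - strand): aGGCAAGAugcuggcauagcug
miR-10a-5p (chr11:96317186-96317208, + strand): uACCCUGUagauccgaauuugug
miR-99b-5p (chr17:17830194-17830215, + strand): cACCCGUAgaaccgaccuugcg
miR-103-2-3p (chr2:131288103-131288125, + strand): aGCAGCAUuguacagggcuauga

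The deposited values are read counts divided by 1 factor per library. Lgr5 High libraries held 24611108 and 16013732 reads, and Sox9 Negative libraries 2241831 to 6474637. The table lists no entry below 10 reads, and a listed 0 therefore stands for anything from no read to 9. The value of 10 reads was 1.46 and 2.44 in Lgr5 High and 10.0 to 23.3 in Sox9 Negative, so all values under 30 were raised to 30 for testing (the floor). Both Lgr5 High libraries ran on lane 8, Sox9 Negative 1 and 2 on lane 5 and Sox9 Negative 3 and 4 on lane 4. Lane, or any difference of sequencing run, cannot be told apart from population. Differences are also given against each Sox9 Negative lane where they change, which does not separate lane or run from population. Log2 values of the 278 entries above the floor in all 6 libraries correlated at 0.971 between the Lgr5 High libraries, 0.938 to 0.991 among Sox9 Negative and 0.716 to 0.794 between populations. In bulk libraries, fewer cells of a type and less RNA per cell cannot be told apart.

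Close to every second miRNA entry tested differed between the populations, in both directions. An entry is a miRNA as listed, with or without an offset from its annotated start. Of 527 entries tested with limma on log2 values, 246 (46.7%) were called at a Benjamini-Hochberg adjusted p under 0.05 and a log2 difference of at least 1. Of all entries tested, 27.1% were higher and 19.5% lower in Lgr5 High, and 325 entries (61.7%) had no overlap between the populations. For 226 of the 246 the difference was at least 1 in the same direction against each Sox9 Negative lane alone. Counting 1 entry without an offset for each mature sequence, 95 of 211 (45%) were called, 54 higher (25.6%) and 41 lower (19.4%), and 131 (62.1%) did not overlap. The plot of fold change against level shows these 211, whose median log2 difference was 0.09. The scaling bears on the balance of directions: the median over the 278 entries was -0.035 on the deposited scale, 0.177 with TMM factors and 0.725 when values were scaled to library totals. With library totals 211 entries were higher and 74 lower, so 74.0% of calls were higher against 58.1% on the deposited scale.

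**Figure D1:**
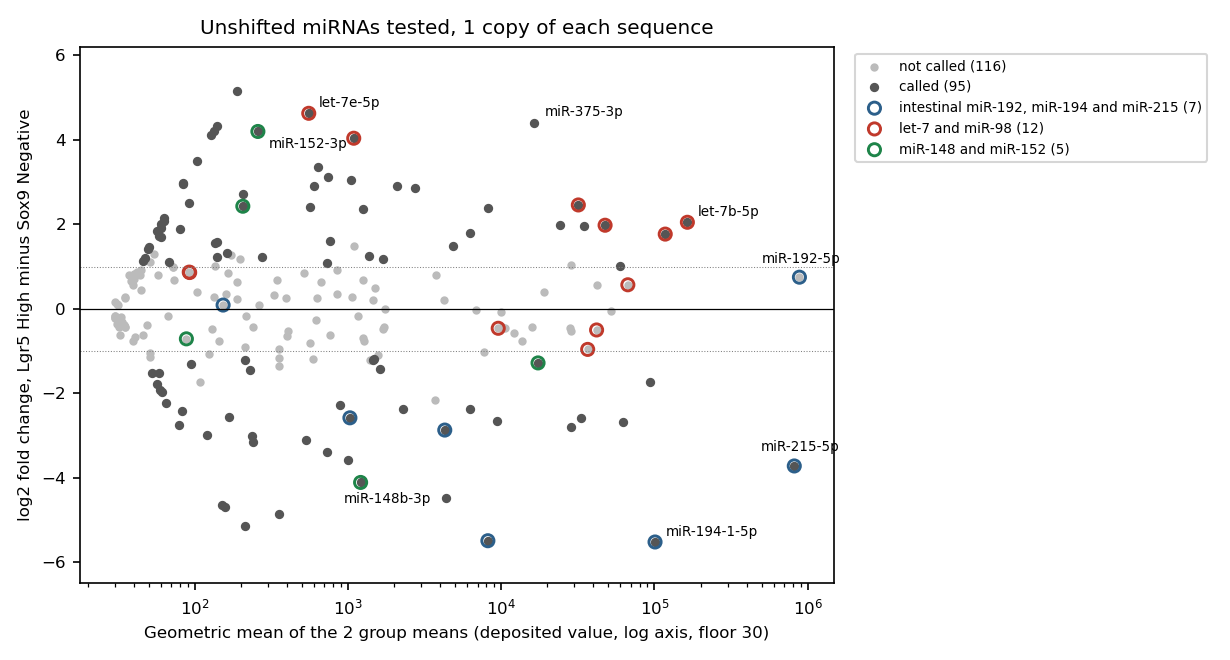
Each point is 1 of the 211 miRNAs without an offset that were tested; the x axis is the geometric mean of the 2 group means (deposited value, log axis) and the y axis is the log2 fold change, Lgr5 High (n = 2) minus Sox9 Negative (n = 4). Dark points are the 95 called, and rings mark 3 families: miR-192-5p lies at 0.75 and the other abundant members of its group far below 0, and let-7 members run from -0.96 to 4.63.

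Within the intestinal group, miR-194 and miR-215 fell in Lgr5 High cells and miR-192-5p did not. This intestinal list has 7 members tested, of which 5 were lower and none higher, with a median log2 difference of -2.87. Over all 211, 25.6% were higher and 19.4% lower, with a median of 0.09. The miR-215-5p values were 199233 and 245982 in Lgr5 High and 2999108, 4290081, 2428393 and 2295304 in Sox9 Negative libraries 1 to 4. Every Sox9 Negative library was thus far above both Lgr5 High libraries, and miR-215-5p fell by 3.72 on the log2 scale (SE 0.32, adjusted p = 0.000247). For miR-194-1-5p the values were 13359 and 16098 against 977865, 681126, 554267 and 549888. It fell by 5.52 (SE 0.31, adjusted p = 0.000227), the largest fall among the miRNAs named here. The other arm of the miR-215 hairpin, miR-215-3p, fell by 5.49, from 41564 to 70044 in Sox9 Negative to 1314 and 1095 in Lgr5 High. In contrast, miR-192-5p stood at 1106916 and 1165708 in Lgr5 High and at 748453, 840446, 598953 and 559359 in Sox9 Negative. Its groups did not overlap, yet the log2 difference of 0.75 (SE 0.26, adjusted p = 0.052) was not called, while it was called at 1.51 (adjusted p = 6.14e-05) with library totals. Its other arm, miR-192-3p, had a log2 difference of 0.09.

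As shares of all listed value in a library, the leading miRNA changed places. miR-215-5p made up 46.0% ± 3.48 (SD, n = 4) of Sox9 Negative libraries and 5.92% ± 0.531 (SD, n = 2) of Lgr5 High libraries. miR-192-5p made up 10.7% ± 0.703 of Sox9 Negative and 30.3% ± 0.687 of Lgr5 High. miR-194-5p, counted at its higher copy, took 10.8% ± 2.31 of Sox9 Negative and 0.392% ± 0.0284 of Lgr5 High. The 8 let-7 5p sequences together, each counted at 1 copy, took 5.22% ± 0.672 and 22.6% ± 0.0076. The total of a library holds every listed copy and offset, so a let-7 share with all copies counted would be larger. None of these 4 shares overlapped between populations, and each gave p = 0.133 in a two-sided exact permutation test, the smallest p that 15 arrangements allow, so 0.05 could not be reached. Because miR-192-5p and miR-215-5p carry the same seed UGACCUA, the summed value of that seed changed less than miR-215-5p: it was 1306148 and 1411691 in Lgr5 High against 2854663 to 5130527 in Sox9 Negative, and fell by 1.4 (adjusted p = 0.00745).

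**Figure D2:**
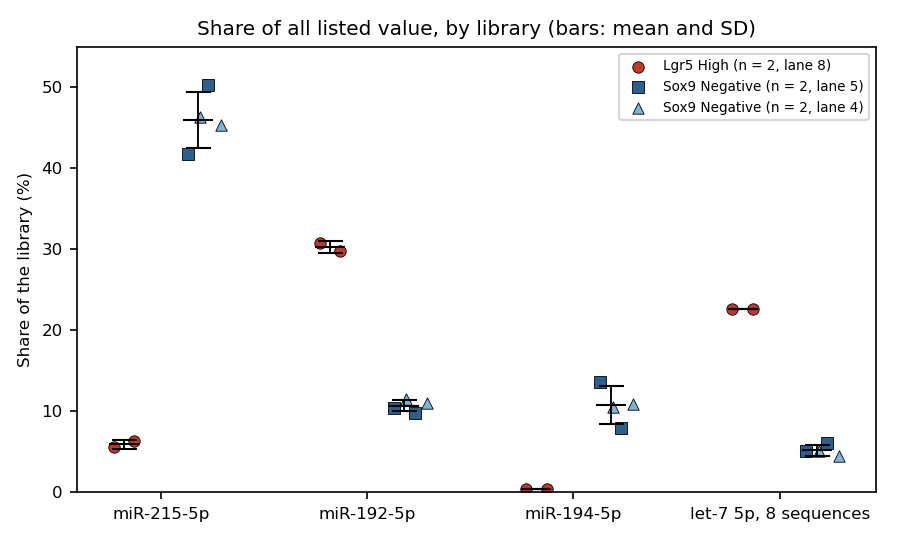
Share of all listed value in each library (%) of miR-215-5p, miR-192-5p, miR-194-5p and the 8 let-7 5p sequences; points are libraries, marked by population and lane, and bars give the mean and SD. In Lgr5 High miR-192-5p (30.3%) and let-7 (22.6%) lead, and in Sox9 Negative miR-215-5p (46.0%) leads.

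The 2 copies of miR-194-5p have the same mature sequence, at chr1 beside miR-215 and at chr19 beside miR-192, and the table gives each its own value. They are printed with the mature sequence in lower case and the 3 hairpin bases on either side in capitals, since only these distinguish them.
miR-194-1-5p (chr1:185313325-185313346, + strand): GGGuguaacagcaacuccauguggaCUG
miR-194-2-5p (chr19:6264658-6264679, + strand): CUCuguaacagcaacuccauguggaAGU
miR-92a-1-3p (chr14:115044476-115044496, + strand): UGGuauugcacuugucccggccugUUG
miR-92a-2-3p (chrX:52741854-52741874, - strand): AAGuauugcacuugucccggccugAGG
The ratio of the chr1 copy to the chr19 copy was 1.16 and 1.12 in Lgr5 High and 4.63, 7.72, 5.49 and 4.8 in Sox9 Negative. For miR-92a, the ratio of the chr14 copy to the chrX copy was 2.08 and 3.38 in Lgr5 High and 27.5, 42, 30.4 and 31.8 in Sox9 Negative. Neither pair of ratios overlapped between the populations (exact permutation p = 0.133 each, the smallest possible). Of 16 pairs of copies with 1 mature sequence, 12 had values within 10% of each other in all 6 libraries, and the remaining pairs, of miR-128-3p and miR-181b-5p, had ratios of 1.32 to 1.78 and 1.11 to 1.41. No source at hand says how a read with several loci was assigned to a copy. The seed sum of both miR-194 copies fell by 4.85 (adjusted p = 0.000103).

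The let-7 family rose in Lgr5 High, but not in all members. Of 12 let-7 and miR-98 members tested, 6 were higher and none lower, with a median of 1.32, beside 25.6% higher and 19.4% lower over all 211. With library totals 8 of the 12 were higher. let-7b-5p, the most abundant, had 300407 and 352913 in Lgr5 High and 82450, 123733, 68282 and 54843 in Sox9 Negative. Both Lgr5 High values lay above the highest Sox9 Negative value, a rise of 2.05 (SE 0.36, adjusted p = 0.00373). let-7a-1-5p rose by 1.98 and let-7c-2-5p by 1.77. let-7e-5p had the largest rise, 4.63 (SE 0.46, adjusted p = 0.000409), from 70.1 to 169 in Sox9 Negative to 3219 and 2167 in Lgr5 High. let-7d, whose 5p arm was chosen after its values were seen, rose on both arms, by 2.46 for let-7d-5p and 4.04 for let-7d-3p. Without Lgr5 High 2, let-7b-5p missed the threshold at 1.93 (adjusted p = 0.0561), and let-7c-2-5p missed it without either Lgr5 High library, at 1.85 (adjusted p = 0.0689) and 1.69 (adjusted p = 0.0876).

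Other members with the same seed were not called on the deposited scale. let-7f-2-5p differed by 0.57 (adjusted p = 0.267), and was called higher with library totals, at 1.33 (adjusted p = 0.00102). Chosen after their values were seen, let-7g-5p had 36826 and 31698 in Lgr5 High against 33406 to 75983, and let-7i-5p had 22789 and 28224 against 35503 to 84803. Their log2 differences of -0.50 and -0.96 were not called, and with library totals let-7g-5p stood at 0.26 and let-7i-5p at -0.20. The seed sum GAGGUAG, which adds these members and their copies, was 1187468 and 1273327 in Lgr5 High and 329961 to 759264 in Sox9 Negative. It rose by 1.37 (adjusted p = 0.0186).

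Among entries without an offset, the 12 largest rises are drawn with the 12 largest falls in the plot of values by library. Only entries that were called, had no overlap between the populations and had a mean of at least 100 were taken. miR-669c-5p led with 1714 and 662 in Lgr5 High and was listed at 0 in all 4 Sox9 Negative libraries. It was at least 39.6-fold higher when Sox9 Negative is set at the floor. miR-375-3p, known from pancreatic islets and enteroendocrine cells, had 75216 and 73988 against 2964, 5323, 3030 and 3190. It rose by 4.41 (SE 0.31, adjusted p = 0.000227) and was the eighth most abundant miRNA of Lgr5 High cells. Its mean of 74602 in Lgr5 High was below the means of 258588 in Sox9 Low and 303242 in Sox9 High cells.

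Several rises were of arms or family members that were under or near the floor in Sox9 Negative. miR-92a-1-5p, from the miR-17 to miR-92 transcript, had 439 and 846 in Lgr5 High and at most 29.9 in Sox9 Negative, and miR-25-5p, from an intron of the replication gene Mcm7, had 384 and 704 against at most 18.9. With values under the floor raised to it, the fitted rises were 4.34 and 4.12, which can understate the difference. miR-99b-5p reached 797 and 383, with a single Sox9 Negative library listed, at 16.6. miR-342-5p, from an intron of Evl, had 470 and 247 against at most 31. miR-152-3p rose by 4.2 (SE 0.4), with 1519 and 749 against 48.9 to 66.4. miR-744-5p, within an intron of the kinase gene Map2k4, rose by 3.35 and miR-328-3p by 3.13. miR-10a-5p, which lies in a Hox gene cluster, was above the floor in every library, with 3496 and 2190 against 145.2 to 639. It rose by 3.04 (SE 0.62, adjusted p = 0.00671). That call was lost without Lgr5 High 1 (2.71, adjusted p = 0.0987) or Lgr5 High 2 (3.38, adjusted p = 0.061).

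**Figure D3:**
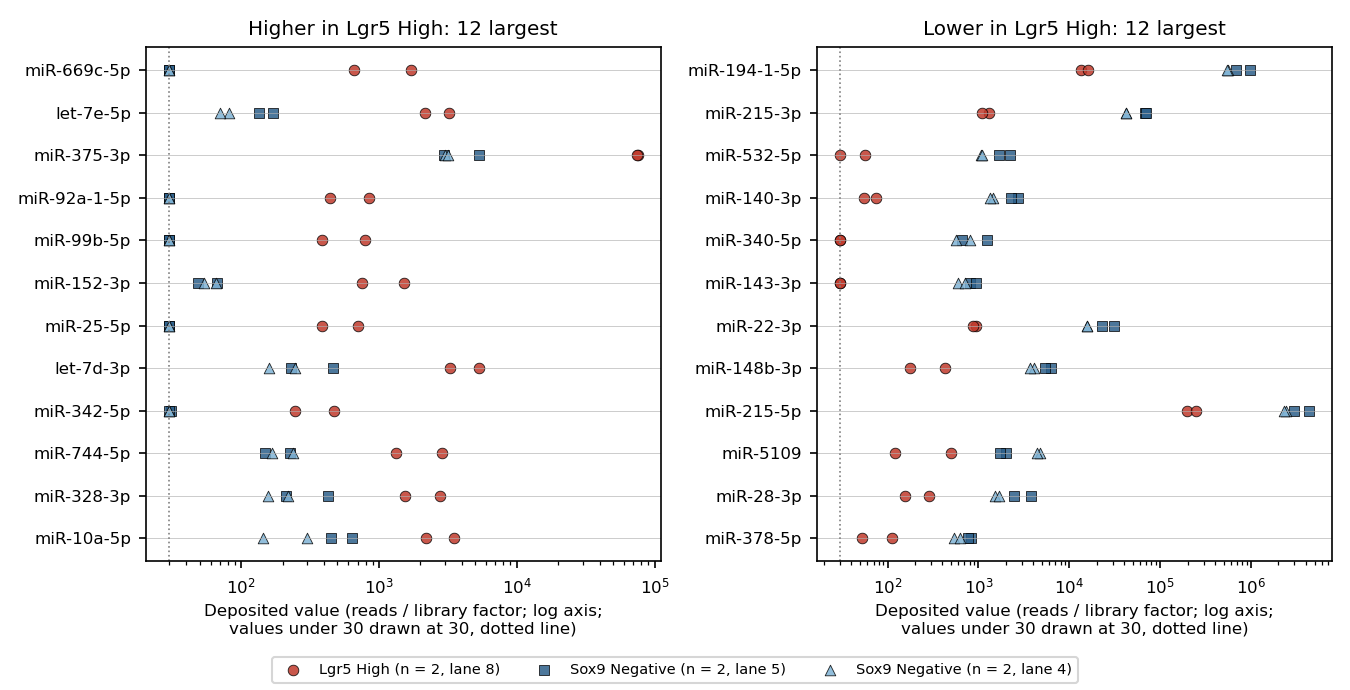
Deposited values (log axis, values under 30 drawn at 30) in each of the 6 libraries of the 12 miRNAs with the largest rises (left) and falls (right) in Lgr5 High; marker shapes give population and lane. All 24 were chosen to have no overlap between the populations. miR-375-3p sits at 73988 and 75216 in Lgr5 High and at 5323 or below in Sox9 Negative.

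Falls were led by the intestinal miRNAs already described and by miR-532-5p, which had 55.7 and 0 in Lgr5 High against 1700, 2196, 1059 and 1086. miR-140-3p, encoded in an intron of Wwp2 and known from cartilage, had 55.5 and 75.4 against 2748, 2257, 1453 and 1331, a fall of 4.85 (SE 0.40, adjusted p = 0.000227). miR-22-3p, from an exon of the non-coding Mir22hg, had 943 and 864 against 30709, 22851, 15446 and 15663. The groups lay far apart, and miR-22-3p fell by 4.49 (SE 0.35). miR-340-5p was listed at 0 in both Lgr5 High libraries and at 560 to 1250 in Sox9 Negative, so it was at least 27.3-fold lower against the floor. miR-148b-3p fell by 4.11, miR-28-3p by 3.38 and miR-378-5p by 3.15. miR-5109 fell by 3.58 (SE 0.70), with 120 and 496 against 1730 to 4768, and was not called without Lgr5 High 1 (-2.56, adjusted p = 0.071). In miR-5109 the Sox9 Negative lanes differed: 2019 and 1730 on lane 5 against 4768 and 4370 on lane 4.

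miR-143-3p, a miRNA of smooth muscle and fibroblasts, had 26.9 and 0 in Lgr5 High and 798, 937, 600 and 713 in Sox9 Negative, a fall of 4.65 (adjusted p = 0.000227). It belongs to the markers of other cells that a sort can hold. The stromal and muscle list of 16 entries summed to 37.9 and 103.9 in Lgr5 High and 702 to 1060 in Sox9 Negative. Most of the sum came from miR-143-3p in Sox9 Negative and in Lgr5 High 1, and in Lgr5 High 2 it came from miR-1a, miR-133a and miR-199 entries. The list holds these as pairs of entries with identical values, so the sum counts each value more than once. Of the 16, 9 were listed at 0 in all 6 libraries, among them both arms of miR-145 and of miR-214. The only leukocyte marker tested, miR-155-5p, moved the other way, with 124.3 and 116.3 in Lgr5 High and 0 to 18 in Sox9 Negative (rise of 2.00, adjusted p = 0.000227, not called with a floor of 100 or with all 31 libraries in the fit). The 7 leukocyte entries summed to 143.9 and 180.7 against 0 to 18, miR-142-5p was listed at 64.4 in Lgr5 High 2 alone, and miR-142-3p and both arms of miR-223 were at 0 in all 6 libraries. The endothelial miR-126-5p was listed at 37.2 and 80.2 in Lgr5 High and at 0 in Sox9 Negative, with a log2 difference of 0.87 that was not called. The 2 endothelial entries summed to 54.1 and 80.2 against 0. The red cell list of 5 entries, carried by miR-486-5p, stood at 103.5 and 97.6 against 0 to 126.2, and miR-451 and both arms of miR-144 were at 0 in all 6 libraries. The part of such cells in the miRNA differences was not tested.

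Other abundant miRNAs of Sox9 Negative cells also fell in Lgr5 High. miR-21-5p, found in many tissues, had 49788 and 50186 against 237886, 193106, 107061 and 155388, and fell by 1.73 (adjusted p = 0.00666). It fell short of the size threshold with library totals, at -0.97, and was not called without Lgr5 High 1 (adjusted p = 0.069) or 2 (adjusted p = 0.0711). miR-378-3p, which accompanies the coactivator gene Ppargc1b, fell by 2.68 (adjusted p = 0.00379), from 103755 to 297680 down to 21346 and 25992. Without Lgr5 High 1 or 2 its adjusted p was 0.0658 or 0.0524. miR-31-5p, studied in intestinal stem cell proliferation and repair, had 13539 and 12820 in Lgr5 High against 96168, 115878, 57535 and 62173. It was lower in the stem cell fraction by 2.59 (SE 0.35, adjusted p = 0.00123). miR-203-3p, a regulator of epidermal differentiation, fell by 2.36 with 3137 and 2341 against 9336 to 18529.

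Members of the miR-148 and miR-152 family, which share the seed CAGUGCA, moved apart. miR-148a-3p had 9687 and 12132 against 32430, 39456, 19776 and 19124, and fell by 1.28 (adjusted p = 0.0282). miR-148b-3p had 175 and 428 against 6244, 5347, 4045 and 3691. miR-152-3p went the other way, as given above. Since miR-148a-3p dominates, the seed sum fell by 1.34 (adjusted p = 0.0167). miR-148b lies in an intron of Copz1 and miR-152 in an intron of Copz2, paralogous coat protein genes. The fall of miR-148a-3p was the least firm of the 3: it was not called with library totals (-0.52), or without Lgr5 High 1 (-1.12, adjusted p = 0.19), Lgr5 High 2 (-1.44, adjusted p = 0.115) or Sox9 Negative 1 (-1.18, adjusted p = 0.0646).

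In the families of miR-103 and miR-107 and of miR-10, both tested members were called in 1 direction. So were both tested arms of miR-21 and of miR-378, all lower (miR-21-3p at -2.55, adjusted p = 0.00405). Over all 211, 45% were called, 25.6% higher and 19.4% lower. Both members of miR-103 and miR-107, in introns of the pantothenate kinase genes Pank2 and Pank1, fell: miR-103-2-3p fell by 2.65 and miR-107-3p fell by 2.36, with the seed sum GCAGCAU at 8306 and 8014 against 35506 to 67552. Both miR-10 members rose, miR-10b-5p by 2.37 with 3068 and 2637 against 450 to 639, and their seed sum ACCCUGU rose by 2.61 (adjusted p = 0.000548). Of 3 tested members of miR-99, miR-100 and miR-125, miR-99b-5p and miR-125a-5p rose, with miR-125a-5p at 249 and 221.2 and listed at 0 in every Sox9 Negative library, at least 7.83-fold higher. The other, miR-99a-5p, at 0.82 (adjusted p = 0.00374) was under the size threshold and was called with library totals (1.32). miR-320-3p rose by 2.38 (adjusted p = 0.00582), with 14963 and 20946 against 2386 to 6766, and was not called without Lgr5 High 1 (adjusted p = 0.0556) or 2 (adjusted p = 0.0892). Of 6 tested miR-181 members 1 was called: miR-181c-5p rose by 2.85 (SE 0.23, adjusted p = 0.000227), with 6924 and 7814 against 926 to 1089, while miR-181a-1-5p differed by 0.21 and miR-181d-5p by -0.01.

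The miR-17 to miR-92 clusters are targets of Myc in proliferating cells. Of 20 members tested 3 were higher and 5 lower, with a median of -0.42, beside 25.6% higher and 19.4% lower over all 211. With library totals 4 were higher and 3 lower, so no direction is given for the clusters. miR-92a-1-3p fell by 2.79 (adjusted p = 0.00176), with 9042 and 12089 against 75400, 125719, 50324 and 56955. The chrX copy of the same mature sequence, miR-92a-2-3p, differed in the other direction, by 0.83, and was not called. miR-17-5p fell by 1.22 (adjusted p = 0.0381), with 798 and 1067 against 1432 to 3372. Its call was lost with library totals (-0.46) and without Lgr5 High 1 (-1.01, adjusted p = 0.225), Lgr5 High 2 (-1.43, adjusted p = 0.115), Sox9 Negative 1 (-1.0, adjusted p = 0.0556), 2 (-1.26, adjusted p = 0.0561) or 4 (-1.20, adjusted p = 0.081). miR-25-3p and miR-93-5p, the most abundant members after miR-92a-1-3p, differed by -0.42 and -0.75 and were not called. With library totals these 2 stood at 0.34 and 0.01, so no direction is given for them.

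Epithelial miR-200 family members are repressors of the mesenchymal factors Zeb1 and Zeb2. Of 8 tested 3 were higher and 2 lower, with a median of 0.17, close to the shares of 25.6% and 19.4% over all 211. With TMM factors 3 were higher and 1 lower, and with library totals 4 and 1. miR-141-3p rose by 1.98 (SE 0.24), with 50073 and 46324 against 10743 to 15212, and its other arm miR-141-5p was listed at 0 in Lgr5 High and at 142.3 to 255.7 in Sox9 Negative, at least 6.83-fold lower. miR-200c-3p rose by 1.01 (adjusted p = 0.0289), at the edge of the threshold. It was not called without Lgr5 High 1 (1.03, adjusted p = 0.126), Lgr5 High 2 (1.00, adjusted p = 0.134), Sox9 Negative 3 (0.90, adjusted p = 0.0591) or Sox9 Negative 4 (0.91, adjusted p = 0.0603). miR-200a-3p differed by -0.04 and miR-200b-3p by 0.39. Among 11 miR-30 members 1 was higher and 1 lower, and with library totals 3 were higher and none lower. On the deposited scale none of 6 members of miR-23, miR-24 and miR-27 was called, nor any of 2 of miR-182 and miR-183, of miR-221 and miR-222 or of miR-146. These counts depended on the scaling. With TMM factors or library totals both miR-182-5p (1.24 and 1.79) and miR-183-5p (1.02 and 1.57) were higher, as were miR-23b-3p (1.13 and 1.68) and miR-27b-5p (1.38 and 1.93). Of miR-146 members 1 was higher with TMM factors and 2 with library totals, which also called miR-222-3p (1.44). The list of endocrine and neural miRNAs had 3 of 6 tested members higher: miR-375-3p, miR-672-5p (196 and 279, listed at 0 in Sox9 Negative) and miR-7a-2-3p. miR-7a-1-5p of the same list differed by -1.02 (adjusted p = 0.0915).

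Clusters of neighbouring hairpins held calls in 1 direction and in both. Hairpins on 1 strand whose mature sequences start within 10 kb of the next were taken as a cluster, and 23 clusters had at least 2 hairpins tested. In 10 of these at least 2 entries were called, 7 in 1 direction only and 3 in both, beside 45% called over all 211. Whether neighbours share a direction more often than other miRNAs was not tested. miR-99b, let-7e and miR-125a on chr17 all rose, by 4.2, 4.63 and 2.97. All 4 tested arms of miR-194-1 and miR-215 on chr1 fell, by 2.87 to 5.52. In the chr19 cluster, 1 of the 7, the calls were both arms of the single hairpin miR-194-2, of which the 5p arm fell by 3.24, while the 2 arms of miR-192 were not called. Arms going both ways within 1 transcript were found in the chr14 cluster (miR-92a-1-5p higher, miR-17-5p, miR-20a-5p and miR-92a-1-3p lower), with miR-200a-5p lower and miR-200b-5p higher on chr4, and with miR-141-3p and miR-200c-3p higher and miR-141-5p lower on chr6. Neither 5p call on chr4 held without Lgr5 High 1 (adjusted p = 0.159 and 0.115) or 2 (adjusted p = 0.0915 and 0.128), nor that of miR-200a-5p without Sox9 Negative 1 (0.0625) or that of miR-200b-5p without Sox9 Negative 4 (0.0581). miR-200a-5p also fell short of the size threshold with TMM factors (-0.97) and was not called with library totals (-0.42, adjusted p = 0.0866), so the chr4 cluster held calls both ways on the deposited scale and with neither of these scalings.

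The values of all entries with one seed, copies and offsets included, were also summed. Copies with unlike values were each added, so a read listed at more than 1 locus can count more than once. Seeds come from the matched RefSeq sequences, so miR-669c-5p, miR-375-3p, miR-532-5p and miR-143-3p are not among those ranked. Of 263 seeds tested 135 (51.3%) were called, 74 higher (28.1%) and 61 lower (23.2%). Among these seeds the 6 largest falls were CUGUCAU of miR-215-3p (-5.49), GUAACAG of miR-194 (-4.85), ACCACAG of miR-140-3p (-4.85), UAUAAAG of miR-340-5p (-4.70), UGUAACA of miR-194-5p starting a base early (-4.50) and AGCUGCC of miR-22-3p (-4.49). The 6 largest rises among them were GGUUGGG of miR-92a-1-5p (4.34), ACCCGUA of miR-99 and miR-100 (4.34), GGCGGAG of miR-25-5p (4.12), UAUACGA of let-7d-3p (4.04), UGGCAAU of miR-182-5p starting a base late (3.78) and GGGGUGC of miR-342-5p (3.49). Of these 12 seeds, ACCCGUA alone sums more than 1 mature or shifted sequence. With only the highest copy of each mature sequence summed, 75 seeds were called higher and 61 lower.

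The 2 arms of a hairpin did not keep 1 ratio. Log2 of the 3p value over the 5p value was tested in 29 hairpins with both arms above the floor in all 6 libraries, and 16 (55.2%) were called, 8 higher (27.6%) and 8 lower (27.6%) in Lgr5 High. The dominant arm changed in 3 of them. miR-423 is shown with both arms because its 3p arm led in Sox9 Negative and its 5p arm in Lgr5 High.
miR-423-5p (chr11:77078122-77078144, - strand): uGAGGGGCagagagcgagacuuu
miR-423-3p (chr11:77078086-77078108, - strand): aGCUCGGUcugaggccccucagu
Its log2 ratio was -2.11 and -2.61 in Lgr5 High and 1.67, 1.47, 1.44 and 2.00 in Sox9 Negative, a fall of 4.00 (SE 0.41, adjusted p = 4.12e-07). miR-28 behaved alike, at -3.19 and -2.54 against 0.38 to 1.25. miR-30b went the opposite way, at 2.10 and 1.85 against -1.50, 0.98, -0.84 and -1.38 (rise of 2.66, adjusted p = 0.000784), with Sox9 Negative 2 on the side of Lgr5 High. In miR-148a the ratio fell by 3.72 and in miR-148b by 3.40, though the 3p arm led in every library. The ratio of miR-181c fell by 2.46 and that of miR-215 by 1.77. Those of miR-194-1, miR-7a-1, miR-30c-1, let-7d and miR-30d rose by 2.65, 2.03, 1.70, 1.58 and 1.31. The 5p arms of miR-194-1, miR-7a-1 and miR-30c-1 share their mature sequence with another hairpin, so these ratios can mix reads of more than 1 locus. For miR-194-2 the ratio differed by 0.66 and was not called. The remaining 4 calls were miR-27b, miR-130b, miR-17 and miR-200a. Without Lgr5 High 2 the ratio was higher in 4 hairpins in place of 8, and the calls of miR-30c-1 (1.32, adjusted p = 0.0745) and miR-30d (0.94, adjusted p = 0.0998) were lost. A ratio within a library does not depend on the scaling.

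**Figure D4:**
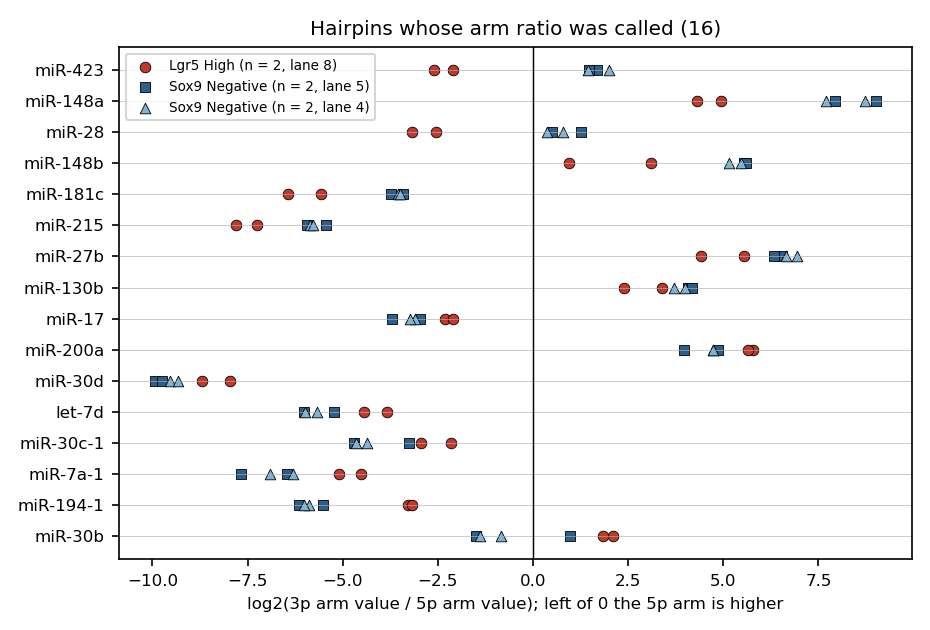
Log2 of the 3p arm over the 5p arm in each library for the 16 hairpins whose ratio was called; markers give population and lane, and the vertical line marks equal arms. For miR-423 and miR-28 the Lgr5 High points lie left of the line and the Sox9 Negative points right of it, and for miR-30b both Lgr5 High points and Sox9 Negative 2 lie right of it.

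Entries with an offset, taken here as reads whose 5′ start is displaced by that many bases, were more often higher than lower in Lgr5 High relative to the unshifted entry. The sources used here do not spell the offset out. They made up 6.43% and 6.62% of the Lgr5 High libraries, 3.56% and 2.86% of Sox9 Negative on lane 5 and 5.18% and 5.07% on lane 4. Of 109 offset entries tested against their unshifted entry, 48 (44%) were called, 43 higher (39.4%) and 5 lower (4.59%) in Lgr5 High. The 43 come from 29 mature miRNAs. At offset +1, 30 of 58 were higher, at -1, 6 of 21, and at +2, 5 of 7. The Sox9 Negative lanes differed too: at +1 the median log2 ratio was 0.60 higher on lane 4 than on lane 5. Against lane 4 alone 32 of the 43 remained at 1 or more, and against lane 5 alone all 43. The calls also needed both Lgr5 High libraries, since 15 were higher without Lgr5 High 1 and 13 without Lgr5 High 2. The part of lane or run in these shifts was not tested.

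miR-26b-5p at offset -1 gives the largest shift, and the miRNA is printed with each start because the seed changes with it.
miR-26b-5p (chr1:74394324-74394344, + strand): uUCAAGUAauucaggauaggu
miR-26b-5p, offset -1: gUUCAAGUaauucaggauaggu
miR-26b-5p, offset +1: uCAAGUAAuucaggauaggu
As percent of the unshifted entry, offset -1 stood at 3.22% and 3.23% in Lgr5 High, at 0.149% and 0.136% on lane 5 and at 0.696% and 0.571% on lane 4. The log2 ratio was higher by 3.43 (SE 0.74, adjusted p = 0.0145), by 4.50 against lane 5 and 2.35 against lane 4. Offset +1 rose by 3.24, and for miR-7a-1-5p offset +1 rose by 3.27. These 3 calls were lost without either Lgr5 High library, at adjusted p of 0.0907 to 0.131. The firmest shift was that of miR-215-5p at +1, with 1.17% and 0.976% against 0.102%, 0.0851%, 0.177% and 0.165%. It was higher by 3.08 (SE 0.37, adjusted p = 0.00831) and kept its call without either Lgr5 High library. The unshifted miR-215-5p fell by 3.72, more than this ratio rose, so the ratio does not show a higher value of the +1 entry. miR-30d-5p at +1 rose by 2.93 and miR-26a-2-5p at -1 by 2.89, both not called without Lgr5 High 1 (adjusted p = 0.136 and 0.0907) or 2 (adjusted p = 0.106 and 0.097). The largest fall, let-7b-5p at +5 (-2.35, adjusted p = 0.0112), concerns at most 0.152% of the unshifted entry. Falls were also called for miR-5115 at -6 (-2.14), miR-5109 at -4 (-1.87) and both copies of let-7a-5p at +3 (-1.45 and -1.32). The call of miR-5115 was lost without Lgr5 High 1 (adjusted p = 0.0967) or 2 (adjusted p = 0.131) and that of miR-5109 without Lgr5 High 2 (adjusted p = 0.0905).

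**Figure D5:**
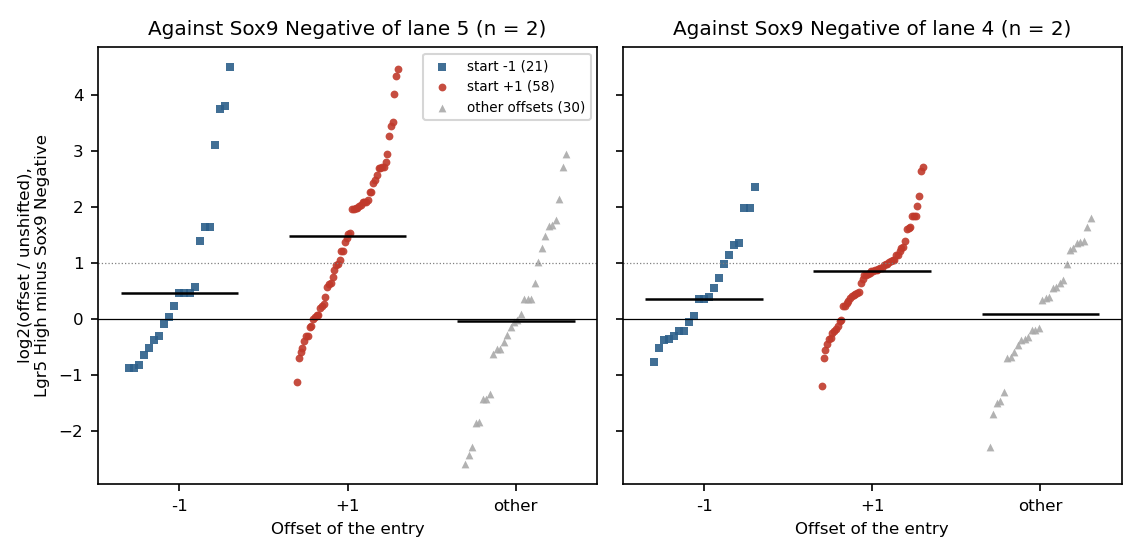
Log2 of the offset entry over its unshifted entry, Lgr5 High minus Sox9 Negative, for the 109 entries tested, sorted within each offset class; the left panel uses the Sox9 Negative libraries of lane 5 and the right panel those of lane 4, and bars are medians. At +1 the median is 1.49 against lane 5 and 0.85 against lane 4.

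Set among all 8 populations with values, the populations compared were not always the extremes. On the deposited scale, Sox9 Negative had the highest population mean for 8 of the 12 largest falls. Lgr5 High had it for 3 of the 12 largest rises (miR-92a-1-5p, miR-25-5p and let-7d-3p). Summed deposited values differed between populations, at 5055852 to 8529957 in Sox9 Negative libraries and 2831178 to 3359149 in Sox9 High. The ranking was not repeated with library totals and can depend on the scaling. miR-152-3p, for example, averaged 1134 in Lgr5 High and 15430 in Paneth cells. miR-215-5p averaged 152019 in Sox9 Low and 120648 in Sox9 High cells, both below its Lgr5 High mean of 222607. Base composition was described over the 173 mature sequences at hand. Of all 173, 44 were called higher and 32 lower. Of 18 with at least 60% G and C, 8 were higher and 1 lower, with a median log2 difference of 1.07. Of 51 at 50% to under 60%, 13 were higher and 10 lower (median 0.08). Of 75 at 40% to under 50%, 19 were higher and 14 lower (median 0.11). Of 29 under 40%, 4 were higher and 7 lower, with a median of -0.46. Across all 173, Spearman's rho between G and C content and the log2 difference was 0.11 and Pearson's r 0.14, points that share the same 6 libraries.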

How the data were processed

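Small RNA libraries of FACS-sorted small intestine were compared between 2 Lgr5 High and 4 Sox9 Negative samples, grouped by their titles. The deposited table holds a signal per miRNA entry: read counts that the authors divided by 1 factor per library, as the values themselves show (whole multiples of 1 step within 0.001 reads). The genome build mm9 is given per the submitters' processing notes; no source at hand names the aligner or the counting and normalization tools. Entries were matched by name to RefSeq (GRCm38.p6), 520 of 638 without an offset, and coordinates are of that build.

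Values under 30 were raised to 30, and an entry was tested if at least 30 in 2 of the 6 libraries. The test was limma 3.58.1 (R 4.3.3; trend, two-sided, Benjamini-Hochberg), called at an adjusted p under 0.05 and an absolute log2 difference of at least 1. Differences are Lgr5 High minus Sox9 Negative. Seed sums were tested alike, and arm ratios and start shifts without trend where both entries reached 30 in all 6. The fit was checked on simulated data. Tables and figures used Python 3.11.15.

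Named are the 8 most abundant miRNAs of each population, the 12 largest rises and falls (called, no overlap, mean of at least 100), up to 6 seeds, arms and shifts each way, and the 4 most abundant members of each list. Named outside that rule, after their values were seen, are let-7d-5p, let-7g-5p, let-7i-5p, miR-192-3p, miR-141-5p, miR-200a-5p, miR-200b-5p, miR-672-5p, miR-7a-2-3p, miR-20a-5p, both arms of miR-194-2 and the markers of other cells. The members and lists were chosen with earlier results of these data known. Other scalings, floors, filters and left-out libraries were tried. Left out were 3 Progenitor libraries and 3 table columns that match no labels, and the 2 single-cell samples.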

Additional observations from a re-analysis of the deposited data

Results flagged for a closer look

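For 10 of the values checked in the 4 Sox9 Negative libraries (6.85% of them), 1 library stood apart from the other 3 by most of the range, which chance gives in about 1 of 20, so the number is close to chance. The figure for each is the gap to the nearest library as a part of the group's range. For miR-375-3p it was 0.904, with Sox9 Negative 2 high at 5323. miR-99b-5p, with its seed sum ACCCGUA, gave 1.0 since it was listed in Sox9 Negative 1 alone. Sox9 Negative 1 also stood apart for miR-200a-3p (0.918), miR-130a-3p (0.904) and miR-203-5p (0.932). Sox9 Negative 4 stood apart for miR-26b-3p (1.0) and miR-181a-1-5p (0.916), the latter low at 2234. Sox9 Negative 2 stood apart for miR-320-3p (0.832), at 6766, and for the start shift of miR-5115 at -6 (0.904). The call of miR-375-3p held without each library in turn, while those of miR-320-3p and the miR-5115 shift each needed both Lgr5 High libraries.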

How the results depend on the processing

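No named result that was called reversed under any alternative run. Differences that were not called changed sign for 22 named miRNAs under at least 1 alternative, 16 of them with library totals, such as let-7g-5p (-0.50 to 0.26), miR-25-3p (-0.42 to 0.34) and miR-30d-5p (-0.52 to 0.24). Over all alternatives, the 12 largest rises lost 2 calls and the 12 largest falls 1. Of all values of named miRNAs under alternatives, 1264 kept their side of the threshold, 38 passed it newly and 80 were lost. Summing entries by mature miRNA called 27.7% higher and 17.7% lower (64 and 41 of 231), and a floor of 100 called 25.4% higher. For seeds, entries without an offset gave 35 higher and 28 lower, a floor of 100 gave 46 higher, and library totals 113 higher. With both entries at or above 100, 5 arm ratios were higher and 4 lower, and 26 start shifts were higher and 0 lower with limma (1 lower at an unadjusted p under 0.05). Leaving out 1 library called 19.2% to 26.8% of entries higher and 11.6% to 20.1% lower, 58 to 74 seeds higher and 40 to 67 lower, 4 to 8 arm ratios higher and 7 to 9 lower, and 13 to 48 shifts higher and 3 to 6 lower. The fewest lower entries and seeds came without Lgr5 High 1, and the fewest higher shifts without Lgr5 High 2. With 1 Lgr5 High library left, it is assumed to vary like Sox9 Negative. Whether the sample numbers pair the samples could not be decided. Deviations of same-numbered libraries from their group means correlated at 0.306 and -0.313. The deviations of the 2 Lgr5 High libraries are mirror images of each other, so opposite signs are partly built in. A replicate block on the number called 105 entries higher (19.9%) and 81 lower (15.4%). The planned edgeR and DESeq2 fits were not run, since reads under 10 are not listed. Depth limits low entries of Sox9 Negative, where an entry at 0 can hold 9 reads. The cause of these changes was not tested.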
